A study of Mus musculus with 19 samples.

Results

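Disease-associated microglia (DAM) genes are the genes that microglia raise around amyloid plaques, dying neurons and demyelinated axons while they lower their homeostatic genes. The 10 followed here are *Trem2*, *Tyrobp*, *Apoe*, *Lpl*, *Cst7*, *Itgax*, *Clec7a*, *Axl*, *Spp1* and *Gpnmb*. The list was chosen with earlier results of these data known, and all its members are followed whatever their values. They were found by matching the symbols to the Ensembl identifiers of the raw count table through the GENCODE mouse annotation, among 56980 genes in the table and 18739 genes that passed the low-count filter. All 10 passed that filter. Their levels were compared in 19 libraries, 1 per mouse, across genotype and treatment.

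All mice were male and 3 to 4 months old. PARK7/DJ-1 KO mice carried a constitutive gene-trap allele of *Park7*, which is present in every cell type, on a C57BL/6NCrl background, and the controls were their wildtype littermates. Animals of each genotype received LPS (*E. coli* O55:B5) intraperitoneally at 4 μg/g body weight or PBS (saline vehicle), and were killed after 6 h. This gave 4 wildtype PBS, 5 wildtype LPS, 5 KO PBS and 5 KO LPS mice. Brain cells were enriched with magnetic beads for CD11b, a surface integrin of microglia that other myeloid cells carry as well, and total RNA was sequenced after depletion of ribosomal RNA. The question put to the DAM genes was how each responded to LPS in each genotype, and whether the genotypes differed at baseline or after LPS.

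*Trem2* encodes a receptor for lipids and apolipoproteins that signals through the adaptor encoded by *Tyrobp*, and in mouse models of amyloid disease this pair is needed for the later step of DAM formation. *Apoe* and *Lpl* handle lipids, *Cst7* inhibits lysosomal proteases, *Itgax*, *Clec7a* and *Axl* encode surface receptors, and *Spp1* and *Gpnmb* encode the secreted protein osteopontin and a transmembrane glycoprotein of lysosomes and phagosomes. In the state first described, a first step that does not need *Trem2* includes *Tyrobp*, *Apoe* and loss of homeostatic genes, and a second step includes *Lpl*, *Cst7*, *Itgax*, *Clec7a*, *Axl* and *Spp1*.

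Library depth ranged from 11936364 to 22788884 counts, at which 3 counts equalled 0.139 to 0.256 CPM, the count scaled to a common library size. *Park7* was lower in every KO library than in any wildtype library, at 0.457 to 5.38 CPM against 20.6 to 32.1 CPM. Microglia markers were abundant in all libraries, though lower after LPS. Summed over 7 genes they ran from 16364 to 25956 CPM in wildtype PBS and 5594 to 9802 CPM in wildtype LPS mice. KO mice had 17506 to 26400 CPM after PBS and 6164 to 10150 CPM after LPS. By the LPS thresholds given below, all 7 were called lower in each genotype. The summed level over 7 astrocyte markers ran from 434 to 5172 CPM and that over 6 oligodendrocyte markers from 523 to 11303 CPM, with overlapping ranges in the 4 groups. With both lists added together, 1 library of each group had the highest sum in its group (wildtype PBS replicate 2, wildtype LPS replicate 2, KO PBS replicate 1 and KO LPS replicate 1). Results were also computed without these 4 libraries.

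The 250 bases before the transcription start were available for 8 of the 10 members from RefSeq (build GRCm38.p6), and are shown for the 4 genes that changed after LPS in both genotypes, since the LPS comparison turns on them. *Tyrobp* and *Lpl* are named only. Of several listed starts (3 for *Apoe*, 2 for *Spp1* and 2 for *Clec7a*) only the most upstream was used, while shares over all windows count every listed start. Capitals mark matches, on either strand, to GAGGAA (the core of PU.1 sites), TGANTCA (a loose form of the AP-1 site), GGANTTTCC (a single form of NF-kB sites), CACGTG (the E-box of MiT/TFE factors), GAAANNGAA (part of the interferon-stimulated response element) and TTGNNNAA (a loose form of C/EBP sites). N stands for any base, so a match need not be a site of the named factor. No 2 matches overlapped in these windows. The first pair of genes rose after LPS and the second pair fell.
Spp1 (chr5:104434861-104435110, plus strand): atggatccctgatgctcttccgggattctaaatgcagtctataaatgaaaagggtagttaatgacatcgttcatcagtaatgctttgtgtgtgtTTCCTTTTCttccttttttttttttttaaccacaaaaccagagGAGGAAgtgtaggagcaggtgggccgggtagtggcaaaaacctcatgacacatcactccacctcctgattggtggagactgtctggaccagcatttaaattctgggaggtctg
Cst7 (chr2:150570165-150570414, plus strand): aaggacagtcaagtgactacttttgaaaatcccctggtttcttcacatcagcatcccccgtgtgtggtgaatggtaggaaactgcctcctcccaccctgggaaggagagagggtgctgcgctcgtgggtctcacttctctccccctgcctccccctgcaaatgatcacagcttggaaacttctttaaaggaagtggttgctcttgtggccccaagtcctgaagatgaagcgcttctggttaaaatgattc
Trem2 (chr17:48346151-48346400, plus strand): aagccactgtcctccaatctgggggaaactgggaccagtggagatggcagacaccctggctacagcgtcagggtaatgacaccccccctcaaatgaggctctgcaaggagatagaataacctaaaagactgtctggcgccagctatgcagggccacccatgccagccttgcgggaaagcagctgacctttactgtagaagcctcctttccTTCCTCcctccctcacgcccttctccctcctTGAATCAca
Apoe (chr7:19699189-19699438, minus strand): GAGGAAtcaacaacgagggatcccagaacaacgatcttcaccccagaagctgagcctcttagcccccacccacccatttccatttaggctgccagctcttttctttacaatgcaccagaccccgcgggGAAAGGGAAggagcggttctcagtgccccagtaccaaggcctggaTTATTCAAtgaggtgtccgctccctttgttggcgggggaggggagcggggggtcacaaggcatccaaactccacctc

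GAGGAA was found in 5 of the 8 windows (*Trem2*, *Apoe*, *Clec7a*, *Axl* and *Spp1*) and in 23.3% of the 32851 windows of the same length in the RefSeq table. TGANTCA was found in *Trem2* (as TGAATCA) and *Itgax* (as TGAGTCA), and in 6.75% of all windows. GAAANNGAA was found in *Apoe* and *Spp1* (7.13% of all windows) and TTGNNNAA in *Apoe*, *Itgax* and *Gpnmb* (33.3%). GGANTTTCC, present in 1.07% of all windows, and CACGTG, present in 6.02%, were in none of the 8, and the *Cst7* window held none of the 6 motifs. These matches are letters in a short window and were not tested against the responses. Other forms of the sites were not searched, so a missing match does not show that a site is absent.

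Per kilobase of the Ensembl canonical transcript, *Trem2* and *Tyrobp* were the most abundant members in PBS-treated mice. *Trem2* stood at 581 ± 120 CPM per kb (SD, n = 4) in wildtype and 590 ± 136 (n = 5) in KO mice, and *Tyrobp* at 476 ± 101 and 517 ± 155, which did not separate mouse by mouse. *Apoe* followed at 230 ± 40.5 and 211 ± 27.1 CPM per kb. *Clec7a*, *Axl*, *Itgax* and *Lpl* came next in that order, from 52.4 down to 4.72 in wildtype mice, with overlap between *Itgax* and *Lpl*. *Cst7* (2.74 ± 0.581 in wildtype), *Spp1* (2.54 ± 0.300) and *Gpnmb* (0.304 ± 0.0923) were the 3 lowest at baseline. After LPS the order changed: *Tyrobp* stood first at 349 ± 53.5 CPM per kb in wildtype and 402 ± 82.6 in KO mice, above every mouse's *Trem2*, and *Spp1* moved from the ninth to the fourth place at 69.2 ± 9.51 and 83.1 ± 33.8. Mouse by mouse, *Spp1* overlapped *Cst7* at baseline in each genotype and both its neighbours, *Apoe* and *Clec7a*, after LPS in KO mice. With all exons of each gene merged as the length, *Tyrobp* was the most abundant member at baseline as well (424 against 128 CPM per kb for *Trem2* in wildtype mice), and *Trem2* stood at place 4 after LPS in each genotype. *Spp1* then moved from place 8 to place 3 in wildtype and to place 2 in KO mice, so these places depend on the transcript length used.

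**Figure D1:**
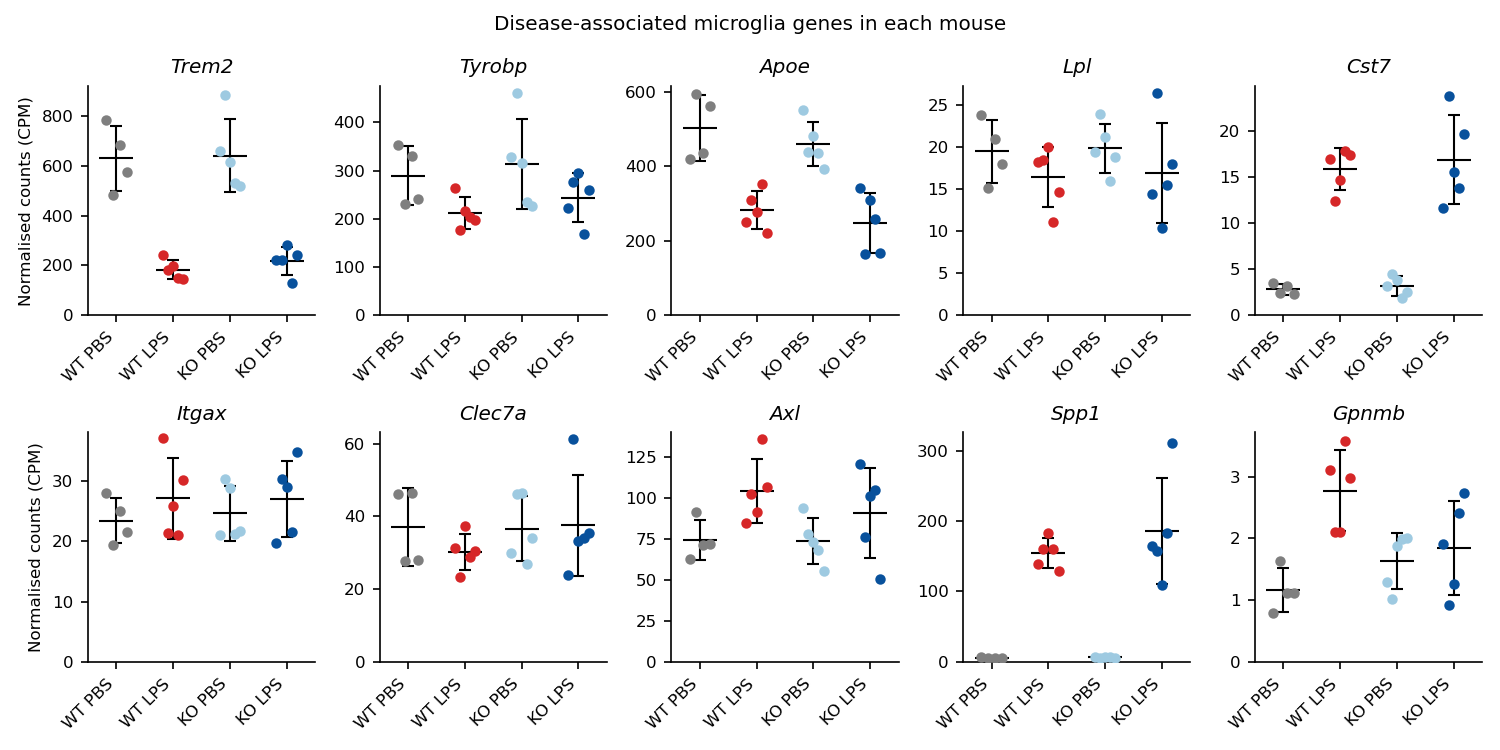
Normalised counts (CPM, linear axes from 0) of the 10 DAM genes in each of 19 mice, with 1 point per mouse and black lines for the group mean ± SD (wildtype PBS n = 4, other groups n = 5). *Spp1* and *Cst7* are higher, and *Trem2* and *Apoe* lower, in every LPS mouse than in any PBS mouse of the same genotype.

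LPS changed 5 of the 10 members in wildtype mice, and the change went both ways. *Spp1*, *Cst7* and *Gpnmb* rose and *Trem2* and *Apoe* fell, at an adjusted p under 0.05 over all genes tested with a log2 fold change (log2FC) of at least 0.5 in size (edgeR quasi-likelihood test). In KO mice *Spp1* and *Cst7* rose and *Trem2* and *Apoe* fell. The shares called among all genes were of the same order, with 18.4% of genes called higher and 17.4% called lower in wildtype mice, and 20.1% and 19% in KO mice, against 3 and 2, and 2 and 2, of the 10 members. The groups did not overlap for the same 5 members in wildtype mice (3 higher and 2 lower) and the same 4 in KO mice, while 20.8% of all genes lay wholly higher and 17% wholly lower in wildtype mice, and 16.2% and 16.6% in KO mice. The median log2FC of the 10 members was -0.02 in wildtype and 0.08 in KO mice, beside -0.06 and -0.01 over all genes tested. The libraries are bulk samples, in which fewer cells of a type and less RNA per cell cannot be told apart.

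The receptor *Trem2* (ENSMUSG00000023992, chromosome 17, 48653429 to 48661175 in GRCm39) was lower in every LPS mouse than in any PBS mouse. Wildtype PBS mice had 784, 484, 686 and 574 CPM and wildtype LPS mice 241, 180, 199, 150 and 146 CPM. KO PBS mice had 662, 884, 615, 531 and 518 CPM and KO LPS mice 223, 221, 283, 130 and 240 CPM. The highest LPS value of either genotype, 283 CPM, lay under the lowest PBS value, 484 CPM. The log2FC was -1.79 (SE 0.21, adjusted p = 1.88e-06) in wildtype and -1.55 (SE 0.20, adjusted p = 4.64e-06) in KO mice, with a range of -1.91 to -1.67 and -1.66 to -1.39 over the alternative settings and left-out mice.

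Its adaptor *Tyrobp* (ENSMUSG00000030579, chromosome 7, 30113170 to 30117010) did not pass the thresholds. Wildtype mice had 352, 231, 330 and 242 CPM after PBS and 264, 177, 216, 204 and 198 CPM after LPS. KO mice had 328, 461, 316, 235 and 228 CPM after PBS and 222, 276, 294, 168 and 260 CPM after LPS. The groups overlapped in both genotypes, and the log2FC was -0.45 (SE 0.20, adjusted p = 0.0875) in wildtype and -0.36 (SE 0.19, adjusted p = 0.137) in KO mice. With only the genes that had at least 10 counts in every library, the wildtype value was -0.52 with an adjusted p of 0.0419 in edgeR, and it was not called in the other 17 alternatives. The KO value ran from -0.45 to -0.18 over its 19 alternatives, the last without KO PBS replicate 2, and was called in none.

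Of the 2 lipid genes, *Apoe* fell and *Lpl* did not pass the test. *Apoe* (ENSMUSG00000002985, chromosome 7, 19430034 to 19434947), the main lipid carrier of the brain and in the healthy brain mostly a product of astrocytes, was at 418, 594, 435 and 561 CPM in wildtype PBS and 251, 309, 277, 353 and 220 CPM in wildtype LPS mice. KO mice had 550, 439, 481, 436 and 394 CPM after PBS and 342, 165, 309, 259 and 166 CPM after LPS. All LPS mice of each genotype were below its PBS mice. The log2FC was -0.83 (SE 0.20, adjusted p = 0.00262) in wildtype and -0.89 (SE 0.19, adjusted p = 0.000874) in KO mice.

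Because *Apoe* is also expressed by other glia, its change was set beside their markers. None of the 6 oligodendrocyte markers and 1 of the 7 astrocyte markers (higher) was called for LPS in either genotype. With the log2 of the summed astrocyte and oligodendrocyte markers as a covariate, chosen after seeing the data, the log2FC of *Apoe* was -0.84 (SE 0.15) in wildtype and -0.97 (SE 0.15) in KO mice, and without the 4 libraries richest in these markers it was -0.78 (SE 0.22) and -0.95 (SE 0.21). Marker sums do not measure *Apoe* per cell, and the cell type behind its change was not tested.

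*Lpl* (ENSMUSG00000015568, chromosome 8, 69284603 to 69360100), the lipoprotein lipase, had 23.7, 15.2, 21.0 and 17.9 CPM in wildtype PBS and 18.1, 18.4, 19.9, 11.1 and 14.7 CPM in wildtype LPS mice. In KO mice it had 19.3, 23.8, 21.1, 16 and 18.7 CPM after PBS and 14.3, 26.4, 10.4, 15.4 and 17.9 CPM after LPS. These ranges overlapped, and the log2FC was -0.24 (SE 0.23, adjusted p = 0.434) and -0.23 (SE 0.21, adjusted p = 0.412).

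Both secreted or lysosomal products *Spp1* and *Cst7* were higher in every LPS mouse than in any PBS mouse of its genotype. *Spp1* (ENSMUSG00000029304, chromosome 5, 104582165 to 104589235) went from 6.46, 5.94, 5.19 and 5.03 CPM to 138, 161, 183, 160 and 129 CPM in wildtype mice, a 27.2-fold difference. KO mice had 6.51, 5.50, 6.60, 6.65 and 6.00 CPM after PBS and 165, 158, 109, 184 and 311 CPM after LPS, a 29.6-fold difference. *Gm42793*, an annotated feature on the same strand that overlaps *Spp1*, had 3 to 59 counts, against 79 to 4305 for *Spp1*. The log2FC was 4.77 (SE 0.25, adjusted p = 2.35e-10) in wildtype and 4.89 (SE 0.23, adjusted p = 2.64e-11) in KO mice, which placed *Spp1* at rank 8 by p among all 18739 genes in each comparison. One KO LPS mouse, replicate 5, stood at 311 CPM against 109 to 184 CPM for the other 4, and the KO value without it was 4.62.

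*Cst7* (ENSMUSG00000068129, chromosome 2, 150412284 to 150420864), which encodes cystatin F, rose from 3.49, 2.36, 3.22 and 2.30 CPM to 16.9, 12.4, 14.7, 17.9 and 17.4 CPM in wildtype mice. KO mice had 3.13, 4.53, 3.86, 1.89 and 2.48 CPM after PBS and 11.7, 23.8, 15.6, 13.8 and 19.7 CPM after LPS. The lowest LPS mouse of each genotype lay above its highest PBS mouse. The log2FC was 2.48 (SE 0.27, adjusted p = 5.33e-07) and 2.41 (SE 0.24, adjusted p = 1.81e-07).

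*Gpnmb* (ENSMUSG00000029816, chromosome 6, 49013426 to 49047863) was the lowest member, with 15 to 55 counts per library. Wildtype PBS mice had 0.782, 1.64, 1.12 and 1.12 CPM and wildtype LPS mice 3.10, 2.10, 2.11, 3.58 and 2.98 CPM, with no overlap. KO mice had 1.29, 1.02, 1.88, 1.99 and 2.00 CPM after PBS and 1.91, 0.914, 1.26, 2.41 and 2.74 CPM after LPS, with wide overlap. An annotated RNA on the opposite strand within the gene, *Gm56981*, had 0 to 10 counts, and the strand setting used for counting is not given in the sources used here, so that reads of the pair may not be fully separated. Opposite-strand RNAs also overlap *Trem2* (*Gm65654*), *Apoe* (*Gm71725*) and *Lpl* (*Gm64236*). They had no entry in the count table, and the same limit holds for these members. The log2FC was 1.25 (SE 0.34, adjusted p = 0.00568) in wildtype and 0.17 (SE 0.31, adjusted p = 0.694) in KO mice.

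The 3 surface receptors did not pass the thresholds in either genotype. *Itgax* (ENSMUSG00000030789, chromosome 7, 127728668 to 127749829), the integrin CD11c, ranged from 19.4 to 28.0 CPM in wildtype PBS, 21.0 to 37.2 in wildtype LPS, 21.1 to 30.4 in KO PBS and 19.7 to 34.9 in KO LPS mice. Its log2FC was 0.21 (SE 0.20, adjusted p = 0.442) and 0.14 (SE 0.19, adjusted p = 0.591). *Clec7a* (ENSMUSG00000079293, chromosome 6, 129438554 to 129449742), the beta-glucan receptor Dectin-1, ranged from 27.6 to 46.4, 23.3 to 37.3, 27.0 to 46.3 and 23.8 to 61.2 CPM in the same order of groups. Its log2FC was -0.29 (SE 0.25, adjusted p = 0.373) in wildtype and 0.03 (SE 0.23, adjusted p = 0.928) in KO mice, and 1 KO LPS mouse (replicate 2, 61.2 CPM) lay above the other 4, which had at most 35.4 CPM. Without that mouse the KO value was -0.22, and its sign differed in 5 of 19 alternatives.

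*Axl* (ENSMUSG00000002602, chromosome 7, 25456535 to 25488329), a TAM-family receptor that takes part in the uptake of dying cells, lay nearest to the thresholds in wildtype mice among the members not called. Wildtype mice had 62.6, 91.2, 70.9 and 71.8 CPM after PBS and 84.7, 102, 91.4, 135 and 106 CPM after LPS. KO mice had 93.7, 77.9, 72.8, 67.9 and 55.5 CPM after PBS and 121, 75.7, 101, 104 and 50.7 CPM after LPS. The wildtype groups overlapped through 1 PBS mouse, replicate 2, which was the wildtype PBS library richest in astrocyte and oligodendrocyte markers. The log2FC was 0.49 (SE 0.21, adjusted p = 0.0693) in wildtype and 0.30 (SE 0.20, adjusted p = 0.229) in KO mice. Without wildtype PBS replicate 2 the wildtype value was 0.62 (adjusted p = 0.0405), which passed, and without the 4 libraries richest in glial markers it was 0.60 (adjusted p = 0.0470), which passed as well. It was not called in 15 of the 18 alternatives, with values down to 0.38 and an adjusted p up to 0.179 in edgeR, and with the glial marker covariate it was 0.49, under the minimum size.

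**Figure D2:**
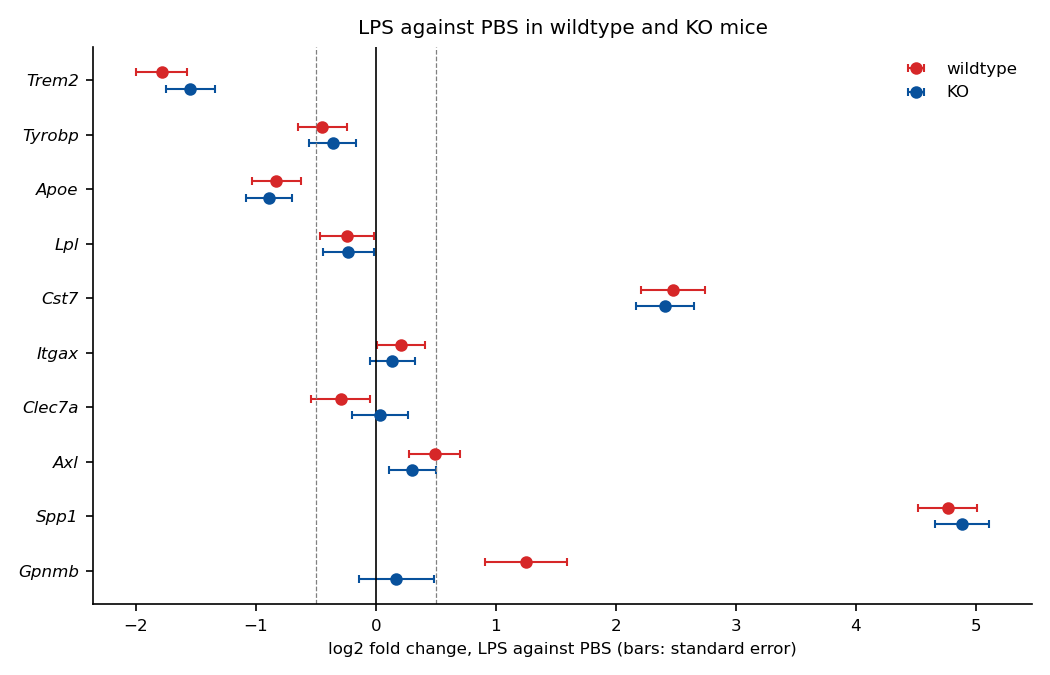
Log2 fold change of LPS against PBS for the 10 DAM genes in wildtype (red) and KO (blue) mice, with bars for the standard error from edgeR and dashed lines at a log2FC of 0.5 in either direction. The widest gap between genotypes is that of *Gpnmb*, at 1.25 in wildtype and 0.17 in KO mice (adjusted p of the difference 1.00, edgeR), and *Clec7a* lies at -0.29 and 0.03.

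The wider gene sets around these members were then described with the same calls. Among 35 further genes of the DAM signature, 34 passed the low-count filter, and 20 rose and 10 fell after LPS in wildtype mice (19 and 9 in KO mice), with a median log2FC of 0.88 and 0.67. *Ch25h*, which encodes cholesterol 25-hydroxylase, rose from 0.820 to 132 CPM (log2FC 7.32, SE 0.61), the oxidase subunit *Cybb* from 63.4 to 485 CPM (2.93, SE 0.27) and the inhibitory receptor *Lilrb4a* from 17.9 to 124 CPM (2.80, SE 0.37). The growth factor *Igf1* fell from 26.3 to 1.36 CPM (-4.25, SE 0.32), the metalloproteinase inhibitor *Timp2* from 458 to 120 CPM (-1.93, SE 0.17) and the adhesion molecule *Cadm1* from 176 to 51.9 CPM (-1.76, SE 0.26).

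All 17 homeostatic microglia genes with a match fell in wildtype mice and in KO mice (1 further gene of the list had no match), with a median log2FC of -1.61 and -1.43, beside -1.79 and -1.55 for *Trem2*. The largest falls in wildtype mice were those of the purinergic receptor *P2ry12*, from 2289 to 181 CPM (-3.66, SE 0.35), the orphan receptor *Gpr34*, from 1366 to 40.0 CPM (-5.09, SE 0.43), and the fructose transporter *Slc2a5*, from 535 to 30.2 CPM (-4.14, SE 0.35). Among 18 genes that act downstream of TREM2 and TYROBP or process the receptor, 8 rose and 2 fell in wildtype mice and 7 rose and 2 fell in KO mice. *Malt1* (log2FC 1.75, SE 0.41), *Lyn* (1.15, SE 0.16) and *Fyn* (1.09, SE 0.16) rose most in wildtype mice, and *Nfatc1* (-1.15, SE 0.26) and the lipid phosphatase *Inpp5d* (-0.63, SE 0.19) fell. The list had a median log2FC of 0.25 and 0.30 in the 2 genotypes. Of the kinase gene *Syk*, which binds TYROBP, the log2FC was 0.53 (SE 0.20, adjusted p = 0.0372, edgeR) in wildtype mice and 0.47 (SE 0.18, adjusted p = 0.0455) in KO mice, of which the second did not reach the minimum of 0.5.

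Of 5 other receptors of the TREM family, 4 rose and 1, *Treml1*, fell in each genotype. *Trem1*, which amplifies inflammatory signals in myeloid cells, went from 2.96 to 103 CPM in wildtype mice (log2FC 5.13, SE 0.44) and from 3.58 to 115 CPM in KO mice (5.00, SE 0.40). *Trem3* (4.03, SE 0.55) and *Treml4* (2.58, SE 0.38) rose from low levels in wildtype mice, and *Treml1* fell (-1.71, SE 0.41), as *Trem2* did. Of the 4 MiT/TFE transcription factors, which drive lysosomal genes such as *Gpnmb*, *Tfec* rose (2.51, SE 0.22) and *Mitf* (-1.02, SE 0.14) and *Tfeb* (-0.61, SE 0.22) fell in wildtype mice, with the same calls in KO mice.

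Markers of blood myeloid cells rose with LPS beside these changes. Of 8 monocyte markers 7 rose in each genotype, and their summed level ran from 140 to 334 CPM in wildtype PBS and 539 to 865 CPM in wildtype LPS mice, and from 163 to 326 and 349 to 822 CPM in KO mice. Of 11 neutrophil markers 6 rose in wildtype and 7 in KO mice, with summed levels of 77.7 to 148 and 192 to 529 CPM in wildtype, and 33.8 to 259 and 121 to 509 CPM in KO mice. No marker of either list was at 0 in all libraries of a group. Of 9 border-associated macrophage markers 6 fell in each genotype. Of 6 dendritic cell markers 4 passed the filter, of which 1 rose and 2 fell in wildtype and 1 rose and 1 fell in KO mice. Of 5 endothelial markers 2 fell in each genotype, of 6 neuron markers 1 rose in each, and of 6 T and NK cell markers the 2 that passed the filter were not called. Of the defining T cell markers, *Trbc2* was at 0 in all wildtype PBS libraries and *Cd3d* in all KO PBS libraries. *Trem1* and *Spp1* are expressed by blood myeloid cells too, and the part of such cells in the changes of the DAM genes was not tested.

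**Figure D3:**
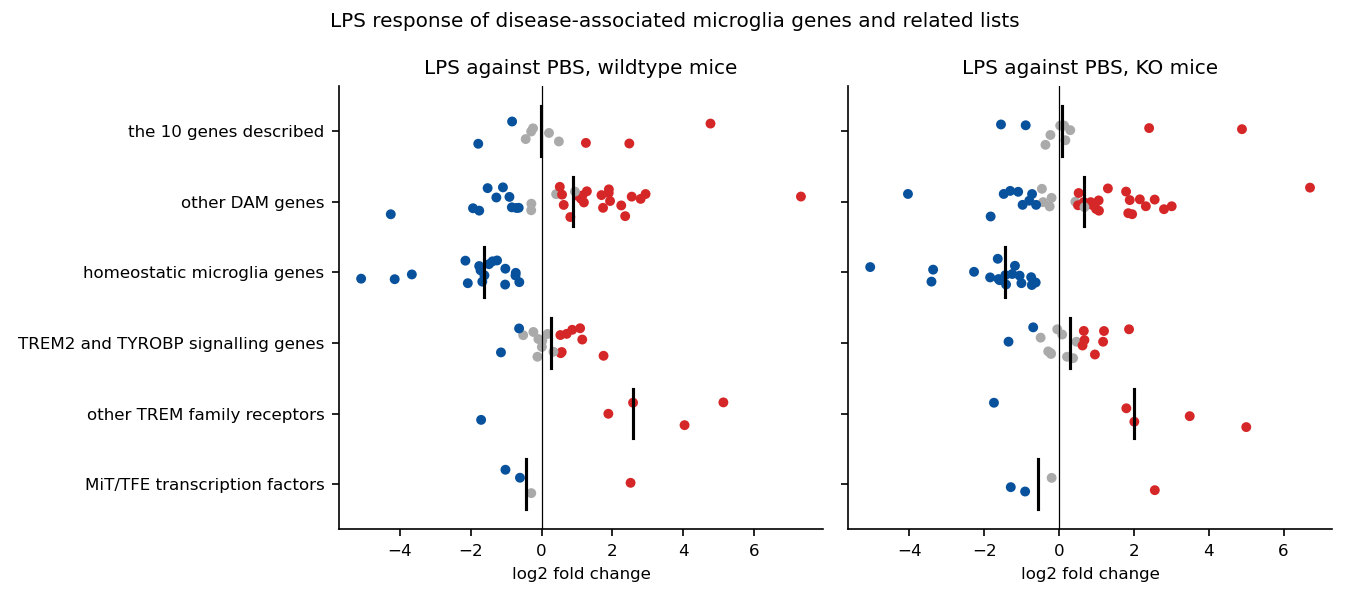
Log2 fold change of LPS against PBS for each gene of 6 lists in wildtype (left) and KO (right) mice, with 1 point per gene that passed the low-count filter, red for genes called higher, blue for genes called lower, grey for the others and a black bar for the list median. The DAM genes spread to both sides of 0, while all 17 homeostatic microglia genes lie below it.

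Between genotypes no member passed the thresholds. After PBS, 0 members were called higher and 0 lower in KO mice at an unadjusted p under 0.05 with a log2FC of at least 0.5 in size, the thresholds used for genotype, beside 0.224% and 0.576% of all genes. After LPS 0 and 0 were called, beside 0.544% and 0.763%. None of the 20 unadjusted p-values from edgeR was under 0.05, the smallest being 0.0710 for *Gpnmb* after LPS, and DESeq2 called 0 members in each direction as well. KO and wildtype mice overlapped in all 20 comparisons of a member at 1 treatment.

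The intervals show what size of difference was compatible with these mice. For *Trem2* the KO to wildtype log2FC was 0.02 (95% interval -0.43 to 0.47) after PBS and 0.26 (-0.17 to 0.69) after LPS. That of *Tyrobp* was 0.12 (-0.32 to 0.55) and 0.20 (-0.21 to 0.62), and that of *Apoe* -0.13 (-0.56 to 0.31) and -0.18 (-0.59 to 0.23). *Spp1* had 0.14 (-0.32 to 0.61) and 0.26 (-0.14 to 0.67), of which the second was -0.0038 without KO LPS replicate 5, and *Cst7* had 0.16 (-0.38 to 0.70) and 0.09 (-0.39 to 0.58). For 9 of the 10 members, *Itgax* being the exception, an interval reached past 0.5 in at least 1 direction after at least 1 treatment, so a difference of that size was not excluded with 4 or 5 mice a group.

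*Gpnmb* had the widest intervals and the point estimates farthest from 0. The KO to wildtype log2FC was 0.49 (95% interval -0.23 to 1.21) after PBS and -0.59 (-1.24 to 0.07) after LPS, with an unadjusted p of 0.162 and 0.0710 and an adjusted p of 1.00 for each by edgeR. The LPS response of *Gpnmb* differed between genotypes by -1.08 (SE 0.46, unadjusted p = 0.0291 by edgeR), with an adjusted p of 1.00. By the adjusted threshold 0 members and 0% of all genes had a different LPS response, while at an unadjusted p under 0.05 there were 1 member and 180 of 18739 genes, and DESeq2 also called 0 members. A difference in the *Gpnmb* response between genotypes is thus not shown at the adjusted threshold. Without KO LPS replicate 4 or replicate 5 the KO to wildtype value after LPS was -0.71 or -0.77, with an unadjusted p of 0.0463 or 0.0251 that met the threshold for genotype and an adjusted p of 1.00 or 0.972 in edgeR. No gene of the further DAM, homeostatic, TREM2 and TYROBP signalling, TREM family or MiT/TFE lists was called between genotypes after PBS or after LPS by edgeR. Of the 78 such genes tested, 3 had an unadjusted p under 0.05 after LPS (*Csf1*, *Lgals3bp* and *Plin2*, named after their values were seen) and 0 after PBS, beside 2.57% and 1.04% of all genes tested. The 3 are 3.85% of the 78.

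**Figure D4:**
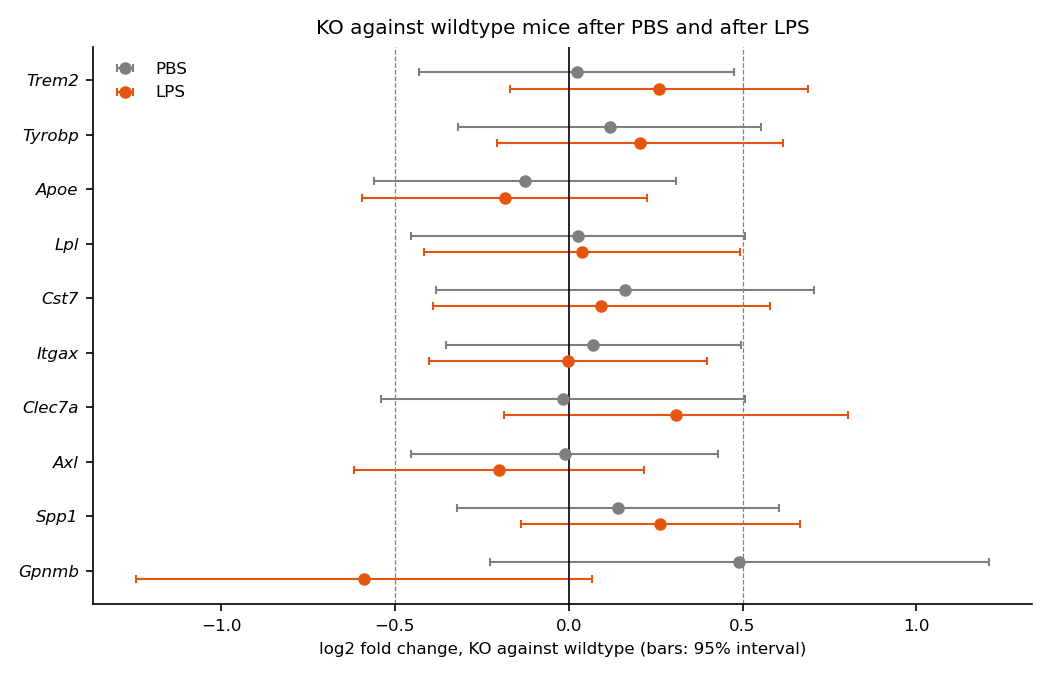
Log2 fold change of KO against wildtype mice for the 10 DAM genes after PBS (grey) and after LPS (orange), with bars for the 95% interval and dashed lines at 0.5 in either direction. Every interval includes 0, and those of *Gpnmb* are the widest.

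Mice of the same group differed from each other in a pattern that split the members. The log2 CPM of each gene was centred on its group mean and correlated over the 19 mice, for the 45 pairs of members and for each member with 3 summed gene lists, giving 75 relations with permutation p-values (values shuffled within groups 100000 times) and Benjamini-Hochberg adjustment over the 75. Of these, 18 had an adjusted p of r under 0.05, and 11 of the 18 were between members. All values of a mouse share 1 library and its scaling, so these relations are not free of each other.

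*Trem2* and *Tyrobp* moved together from mouse to mouse, with Pearson r = 0.888 and Spearman rho = 0.875 over 19 mice. The permutation p was 1e-05 for each, the smallest that 100000 permutations can give (adjusted p = 0.000375 and 0.00075), and r was 0.838 without the 2 mice farthest from the median. Both followed the summed homeostatic microglia genes. *Trem2* did so at r = 0.943 and rho = 0.919 (permutation p = 1e-05 and 2e-05, adjusted p = 0.000375 and 0.00075) and *Tyrobp* at r = 0.888 and rho = 0.865 (permutation p = 7e-05 and 8e-05, adjusted p = 0.00175 and 0.002). These were r = 0.926 and 0.843 without the 2 farthest mice.

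*Cst7*, *Clec7a* and *Itgax* also correlated with each other, though not apart from *Tyrobp*. *Cst7* correlated with *Clec7a* at r = 0.834 and rho = 0.851 (permutation p = 0.00017 and adjusted p = 0.00319 for each, r = 0.772 without the 2 farthest mice). With *Itgax* it had r = 0.725 and rho = 0.707 (permutation p = 0.00122 and 0.00185, adjusted p = 0.0131 and 0.0116, r = 0.768 without them), and *Itgax* and *Clec7a* had r = 0.668 and rho = 0.695 (permutation p = 0.00363 and 0.0013, adjusted p = 0.0209 and 0.0116, r = 0.635 without them). *Cst7* and *Itgax* also followed *Tyrobp*, at r = 0.773 and 0.737 (permutation p = 0.00171 and 0.00076, adjusted p = 0.0133 and 0.0095, rho = 0.765 and 0.737). *Clec7a* and *Tyrobp*, at r = 0.602 and rho = 0.644, passed by rho and not by r (adjusted permutation p = 0.0485 and 0.0598). Further relations of these genes with an adjusted permutation p of r under 0.05 were *Itgax* with the homeostatic genes (r = 0.692) and with *Trem2* (r = 0.634), and *Clec7a* with *Lpl* (r = 0.679). *Itgax* ran against *Axl* (rho = -0.632) and against the summed neutrophil and monocyte markers (rho = -0.625), and *Lpl* followed the homeostatic genes (rho = 0.739), each passing by rho only (adjusted permutation p = 0.0485, 0.0485 and 0.0116 for rho, and 0.0587, 0.0607 and 0.0598 for r).

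*Apoe* and *Axl* formed a set of their own. Their r was 0.825 and their rho 0.805 (permutation p = 0.00027 and 0.00065, adjusted p = 0.00405 and 0.00975, r = 0.740 without the 2 farthest mice). *Apoe* ran against *Itgax* at r = -0.673 and rho = -0.668 (permutation p = 0.00919 and 0.00973, adjusted p = 0.0431 and 0.0429) and against *Clec7a* at r = -0.633 and rho = -0.639 (permutation p = 0.0102 and 0.00945, adjusted p = 0.0452 and 0.0429). Without the 2 farthest mice these were -0.625 and -0.415.

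*Apoe* and *Axl* both followed the summed astrocyte and oligodendrocyte markers. *Apoe* had r = 0.709 and rho = 0.705 (permutation p = 0.00178 and 0.00263, adjusted p = 0.0133 and 0.0147) and *Axl* r = 0.690 and rho = 0.747 (permutation p = 0.00276 and 0.00129, adjusted p = 0.0188 and 0.0116). These were 0.612 and 0.588 without the 2 farthest mice. For *Trem2* and *Tyrobp* the rho with the same sum was -0.0281 and -0.0772 (adjusted permutation p of r = 1.00 and 0.874). The share of *Apoe* and *Axl* reads that came from astrocytes or oligodendrocytes was not tested.

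*Lpl* ran against the summed neutrophil and monocyte markers at r = -0.696 and rho = -0.689 (permutation p = 0.00169 and 0.00274, adjusted p = 0.0133 and 0.0147, r = -0.579 without the 2 farthest mice). *Gpnmb* ran against the homeostatic genes at r = -0.610 and rho = -0.600 (permutation p = 0.0108 and 0.0136, adjusted p = 0.0452 and 0.0485, r = -0.506 without them). *Spp1* had no relation with an adjusted permutation p under 0.05 among its 9 pairs with other members and its 3 with summed lists.

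**Figure D5:**
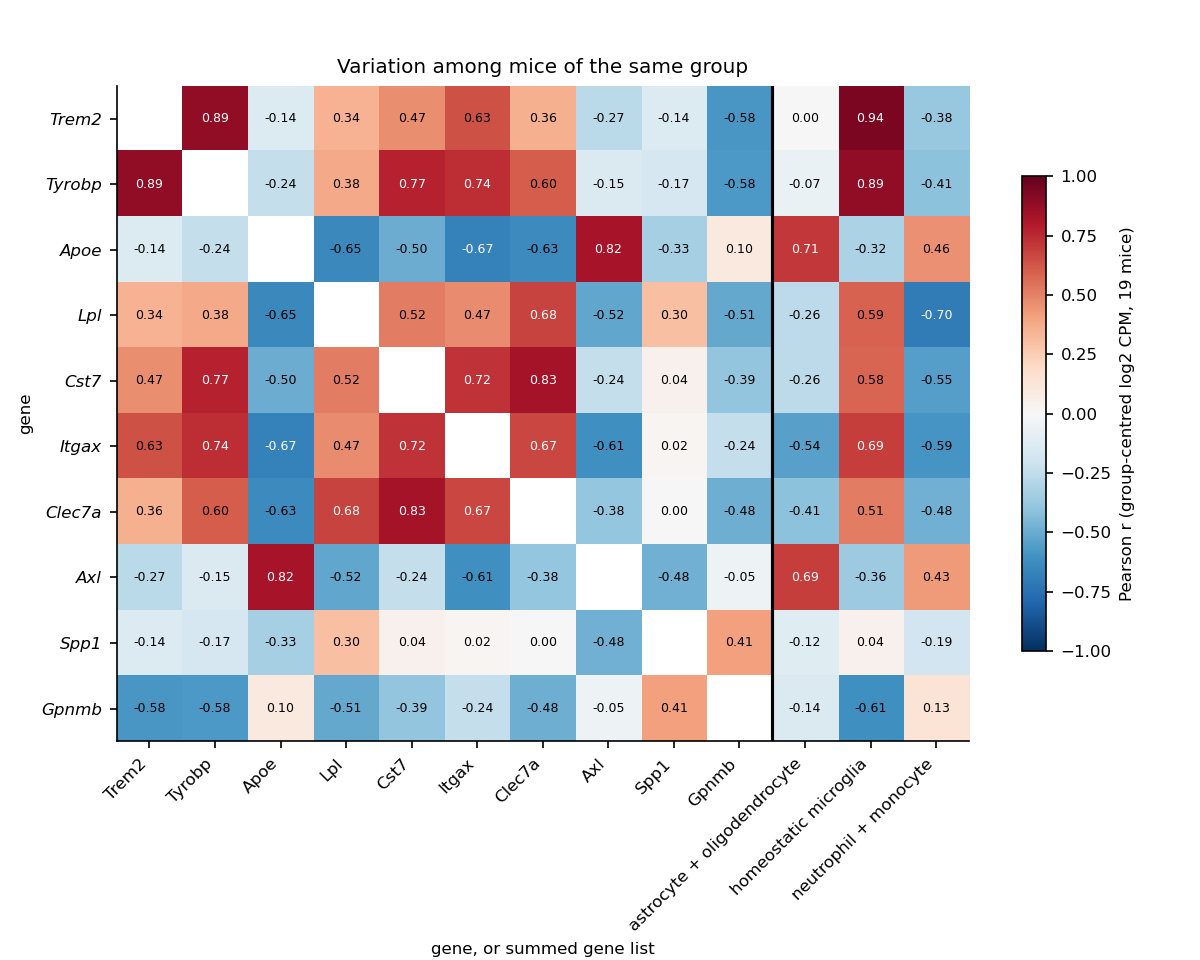
Pearson r over 19 mice of log2 CPM after subtraction of the group mean, for each pair of the 10 DAM genes (left of the line) and each gene with 3 summed gene lists (right of the line), on a colour scale from -1 (blue) to 1 (red). *Trem2* and *Tyrobp* (0.888) and *Apoe* and *Axl* (0.825) are red pairs. *Tyrobp* is also red with *Cst7* (0.773) and *Itgax* (0.737), and *Apoe* is blue against *Itgax* (-0.673) and *Clec7a* (-0.633).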

How the data were processed

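Total RNA, depleted of ribosomal RNA, of CD11b+ brain cells of 19 mice was sequenced in paired reads of 75 bases. The deposited values are raw read counts per Ensembl gene, which the authors made by trimming, alignment to GRCm39 and counting on an Ensembl annotation with Cutadapt and STAR (2.7.9a), and the strand setting of the counting is not given in the sources used here. Depth was 11936364 to 22788884 counts, and with 4 or 5 mice a group the spread among mice, 1 library each, sets the precision.

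Symbols came from GENCODE, which named 56210 of 56980 identifiers. Genes with low counts were removed with filterByExpr of edgeR (4.0.16, R 4.3.3; minimum count 10, total count 15), and TMM-scaled counts of all 19 libraries were fitted in 1 quasi-likelihood model of 4 groups. Standard errors are the fold change divided by the square root of F, and 95% intervals use 15 residual degrees of freedom. LPS calls needed a Benjamini-Hochberg adjusted p under 0.05, genotype calls an unadjusted p under 0.05, both with a log2FC of at least 0.5 in size, and the interaction an adjusted p under 0.05. Scripts were tested on simulated counts. CPM values use TMM-scaled library sizes, and log2 CPM a prior count of 2.

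The members and all gene lists were chosen with earlier results of these data known. All 10 members are named whatever their result, and of each related list up to 3 genes called higher and up to 3 called lower with the largest log2FC after LPS in wildtype mice, with *Syk* and the genotype exceptions added after their values were seen. DESeq2 (1.42.0), other scalings and filters, a block and left-out mice were tried as alternatives, and the 3 that concern glial markers and gene length were chosen after seeing the data. The genes nearest to *Cst7* are not reported here.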

Additional observations from a re-analysis of the deposited data

How the results depend on the processing

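Of 1010 member values recomputed under 9 other settings and 19 that omit a single mouse, 1003 kept their call, 7 passed a threshold that the reported value missed and 0 lost a call or reversed. The 7 were those of *Tyrobp* (1), *Axl* (3) and *Gpnmb* (3), and 76 values of members not called had the other sign. Members called lower in KO mice after LPS numbered 1 with the replicate number as a block (*Gpnmb*, log2FC -0.63, unadjusted p = 0.0472, adjusted p = 1.00, edgeR) against 0, and 0 to 1 with single mice left out. The block also brought *Axl* past the threshold in wildtype mice (log2FC 0.58, adjusted p = 0.0361, edgeR), and it ended no member's call. The numbers were not taken as pairing, since same-numbered mice correlated at -0.04 to 0.58 for LPS in wildtype, 0.03 to 0.54 for LPS in KO mice, -0.57 to 0.30 for genotype after LPS and -0.29 to 0.30 for genotype after PBS. Over all genes, KO against wildtype counts moved with the settings: 102 higher and 143 lower after LPS became 347 and 507 with no low-count filter, and 42 and 69 with at least 10 counts in every library, and 42 and 108 after PBS became 241 and 439, and 6 and 52. With only the groups compared in the fit they were 36 and 69 after LPS. After PBS, 189 were lower with the block, 164 lower with the glial marker covariate and 80 higher without the libraries richest in glial markers. With single mice left out they ran from 100 to 204 higher (most without KO LPS replicate 1) and from 105 to 270 lower (most without KO LPS replicate 5) after LPS, and from 30 to 94 higher (most without wildtype PBS replicate 2) and from 67 to 153 lower (fewest without wildtype PBS replicate 4 or KO PBS replicate 3) after PBS. By adjusted p they were 0 and 2 after LPS and 0 and 1 after PBS. The cause was not tested. *Gpnmb* had the lowest depth of the members, at 15 to 55 counts per library.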

Other observations

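Among 11490 genes with a mean of at least 5 CPM, the genes that varied most like each member over the 19 mice, by Pearson r of log2 CPM centred on group means, are given as a description with no test, since all genes of a mouse share its library. *Trem2* lay nearest to *Hexa* (r = 0.978), which encodes a lysosomal hexosaminidase subunit, then to *Laptm5* (0.956) and *Cd81* (0.954). *Tyrobp* lay nearest to the lysosomal protease gene *Ctss* (0.961), then to *Creg1* (0.956) and *Rnf130* (0.950). *Apoe* lay nearest to *Lrp4* (0.922), *Aldh1a1* (0.908) and *Ednrb* (0.907), and *Axl* to *Doc2b* (0.952), *Anxa5* (0.950) and *Disp3* (0.928). *Lpl* had the microglial fractalkine receptor gene *Cx3cr1* as its nearest (0.946), followed by *Atp2c1* (0.942) and *Lin9* (0.932).

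*Itgax* lay nearest to *Nckap1l* (0.904) and *Clec7a* to *Naa30* (0.889). *Gpnmb* reached 0.772 with *Bckdhb*. *Spp1* reached 0.869 with *Rdm1*, with a Spearman rho of 0.451, and r was 0.451 without the 2 mice farthest from the median.

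Spread among mice within a group differed between members. The coefficient of variation of *Spp1* was 7.94% in KO PBS, 11.8% in wildtype PBS, 13.7% in wildtype LPS and 40.7% in KO LPS mice, and the last of these included replicate 5 at 311 CPM. For *Trem2* it was 20.7%, 21.3%, 23.0% and 25.4% in wildtype PBS, wildtype LPS, KO PBS and KO LPS mice.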
